A study of Mus musculus with 21 samples.

Results

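The 9 genes described here are transcripts used to recognise eosinophils, basophils and mast cells, the granule-bearing effector cells of allergic and antiparasite responses. They are Prg2, Siglecf, Ear2, Cd200r3, Gata2, Ms4a2, Cpa3, Fcer1a and Mcpt8. These genes were chosen by name for their known cell types, with earlier results of these data known. All 9 were found among the 55471 genes of the count table through their Ensembl identifiers. They were measured by RNA sequencing in 21 libraries of sorted dendritic cells (DCs) from 6-week-old C57BL/6 mice labelled male. All mice carried AGF-KI, a reporter allele knocked into Aire (the gene of the autoimmune regulator), so no group was free of the knock-in. Mice labelled AGF-KI/+ are called KI/+ here, and AGF-KI/- mice are called AireKO, as in the sample titles. Lymph node CD45+CD11c+MHCII+ cells gave AGF+ cells of AireKO and KI/+ mice and AGF− cells of AireKO and KI/+ mice, and bone marrow gave AGF+ cells of AireKO and KI/+ mice and a KI/+ sort named total DC in the titles. Bone marrow AGF+ cells came from B220−CD24+ cells with little or no CD11b, and the total DCs from B220−CD11c+MHCII+ cells, so the marrow sorts differ in their gates as well as in the reporter. The design text calls the second marrow sort AGF−. Each of the 7 groups has 3 libraries, described as independent biological replicates.

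Eosinophils and basophils develop in bone marrow and circulate, whereas mast cells mature in tissues. Eosinophil granules hold major basic protein (Prg2), eosinophil peroxidase (Epx) and ribonucleases such as Ear2, and mouse eosinophils carry the sialic acid-binding receptor Siglec-F (Siglecf). Basophils and mast cells share the high-affinity IgE receptor, whose alpha chain is Fcer1a and whose beta chain is Ms4a2, and they depend on the transcription factor Gata2. Cpa3 encodes the mast cell carboxypeptidase, which basophils also express, Mcpt8 a basophil protease, and Cd200r3 an activating receptor of basophils and mast cells. None of these cells is a DC, but sorted DCs can share some of these transcripts, and Kit, the stem cell factor receptor of mast cells, is also present in progenitors.

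GATA factors govern several of these genes in basophils and mast cells, so RefSeq promoters (GRCm38.p6, 250 bases before to 50 bases after the start) were searched for AGATAA or TGATAA on both strands. A promoter was found for 8 of the 9 members, all but Prg2. At least 1 match stood in 5 of the 8, Siglecf, Cd200r3, Ms4a2, Cpa3 and Fcer1a, and in none of Ear2, Gata2 and Mcpt8, while 18.6% of all 32851 promoters held one. In Ms4a2 the matches began at -224, -37 and -11 from the start, in Cd200r3 at -115 and -39, in Cpa3 at -46 and in Siglecf at 12. A match is a description of the letters and not a site of binding. The other letters searched, AGGAAGT (PU.1, in 9.35% of promoters) and the ETS-IRF composite element (in 2.72%), occurred in 0 of the 8. The 4 sequences below are shown because they hold a GATA match and their genes were among the members that stood apart between the sorts, as Ear2 and Gata2, without a match, did too. Capitals mark the GATA matches, which on the other strand read TTATCT or TTATCA.
Siglecf promoter, chr7:43351091-43351390, plus strand: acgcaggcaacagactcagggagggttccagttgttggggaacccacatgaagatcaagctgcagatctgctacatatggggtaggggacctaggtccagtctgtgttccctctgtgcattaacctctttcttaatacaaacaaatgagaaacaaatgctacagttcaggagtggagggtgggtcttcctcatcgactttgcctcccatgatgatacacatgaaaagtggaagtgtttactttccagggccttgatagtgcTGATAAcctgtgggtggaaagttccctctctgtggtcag
Cd200r3 promoter, chr16:44943428-44943727, plus strand: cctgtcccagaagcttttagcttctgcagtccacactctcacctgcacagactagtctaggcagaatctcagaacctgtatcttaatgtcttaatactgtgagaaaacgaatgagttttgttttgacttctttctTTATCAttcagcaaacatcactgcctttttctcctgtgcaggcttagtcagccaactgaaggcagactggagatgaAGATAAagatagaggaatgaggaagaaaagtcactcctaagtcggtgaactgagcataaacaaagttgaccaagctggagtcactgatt
Ms4a2 promoter, chr19:11623670-11623969, minus strand: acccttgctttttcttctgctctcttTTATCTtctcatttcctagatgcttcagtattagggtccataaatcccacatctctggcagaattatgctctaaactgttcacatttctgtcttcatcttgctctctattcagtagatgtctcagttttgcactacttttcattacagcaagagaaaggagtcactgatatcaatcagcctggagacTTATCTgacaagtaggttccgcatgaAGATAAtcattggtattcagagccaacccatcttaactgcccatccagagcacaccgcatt
Cpa3 promoter, chr3:20242132-20242431, minus strand: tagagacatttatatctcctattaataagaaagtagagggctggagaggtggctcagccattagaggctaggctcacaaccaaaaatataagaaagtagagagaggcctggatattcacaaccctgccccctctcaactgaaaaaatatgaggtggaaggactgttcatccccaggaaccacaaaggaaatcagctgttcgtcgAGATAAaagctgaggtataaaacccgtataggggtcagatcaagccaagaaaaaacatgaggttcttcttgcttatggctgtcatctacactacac

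On GRCm38 the 3 members with the most counts in lymph node are Prg2 (ENSMUSG00000027073, chr2:84980461-84983632, plus strand), Siglecf (ENSMUSG00000039013, chr7:43351341-43359531, plus strand) and Ear2 (ENSMUSG00000072596, chr14:44102654-44103534, plus strand).

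The libraries held 4164451 to 6055097 counts, so a member with 0 counts in a library may still have up to 0.456 to 0.764 CPM (library-scaled counts, with TMM factors), the level of 3 counts, and such limits cover counting error only. The libraries numbered 2, 1 in each group, differed from the other 14 in sex-linked transcripts: Xist stood at 2022 to 3994 CPM in them, against 0 to 31.1 CPM, and the sum of 4 Y-linked genes at 0 to 0.766 CPM, against 329 to 567 CPM, although the labels give male mice throughout. Values without these 7 libraries are given where a call depends on them. Aire averaged 25.2 ± 2.10 CPM in AireKO and 114 ± 16.6 CPM in KI/+ lymph node AGF+ cells, and 14.5 ± 4.47 and 101 ± 19.1 CPM in the same genotypes of bone marrow AGF+ cells (SD, n = 3 each). DC genes were present in every group, with 6300 to 12240 CPM summed over 14 of them. Flt3, the receptor that drives DC development, averaged at least 275 CPM in each of the other 6 groups and 35.8 ± 17.4 CPM in bone marrow total DCs. The macrophage gene Adgre1 averaged 63.2 ± 3.67 CPM in bone marrow AGF+ KI/+ cells and 530 ± 137 CPM in total DCs, and Itgax, which encodes CD11c, 58.3 ± 43.7 and 468 ± 119 CPM.

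Bone marrow total DCs had the highest mean level of 8 of the 9 members, Siglecf being the exception, although Fcer1a rested there on 2 counts. The summed level of the members was 23.2 to 32.1 CPM in bone marrow AGF+ AireKO, 17.8 to 60.4 CPM in bone marrow AGF+ KI/+ and 101 to 192 CPM in total DC libraries. It was 14.55 to 20.3 CPM in lymph node AGF+ AireKO and 17.3 to 20.2 CPM in lymph node AGF+ KI/+ libraries. Lymph node AGF− cells had 11.6 to 21.8 CPM in AireKO and 10.35 to 13.5 CPM in KI/+ mice. In every group, total DCs included, the sum was made up mainly of Prg2, Siglecf and Ear2. In these bulk sorts, fewer cells of a type and less RNA per cell cannot be told apart.

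**Figure D1:**
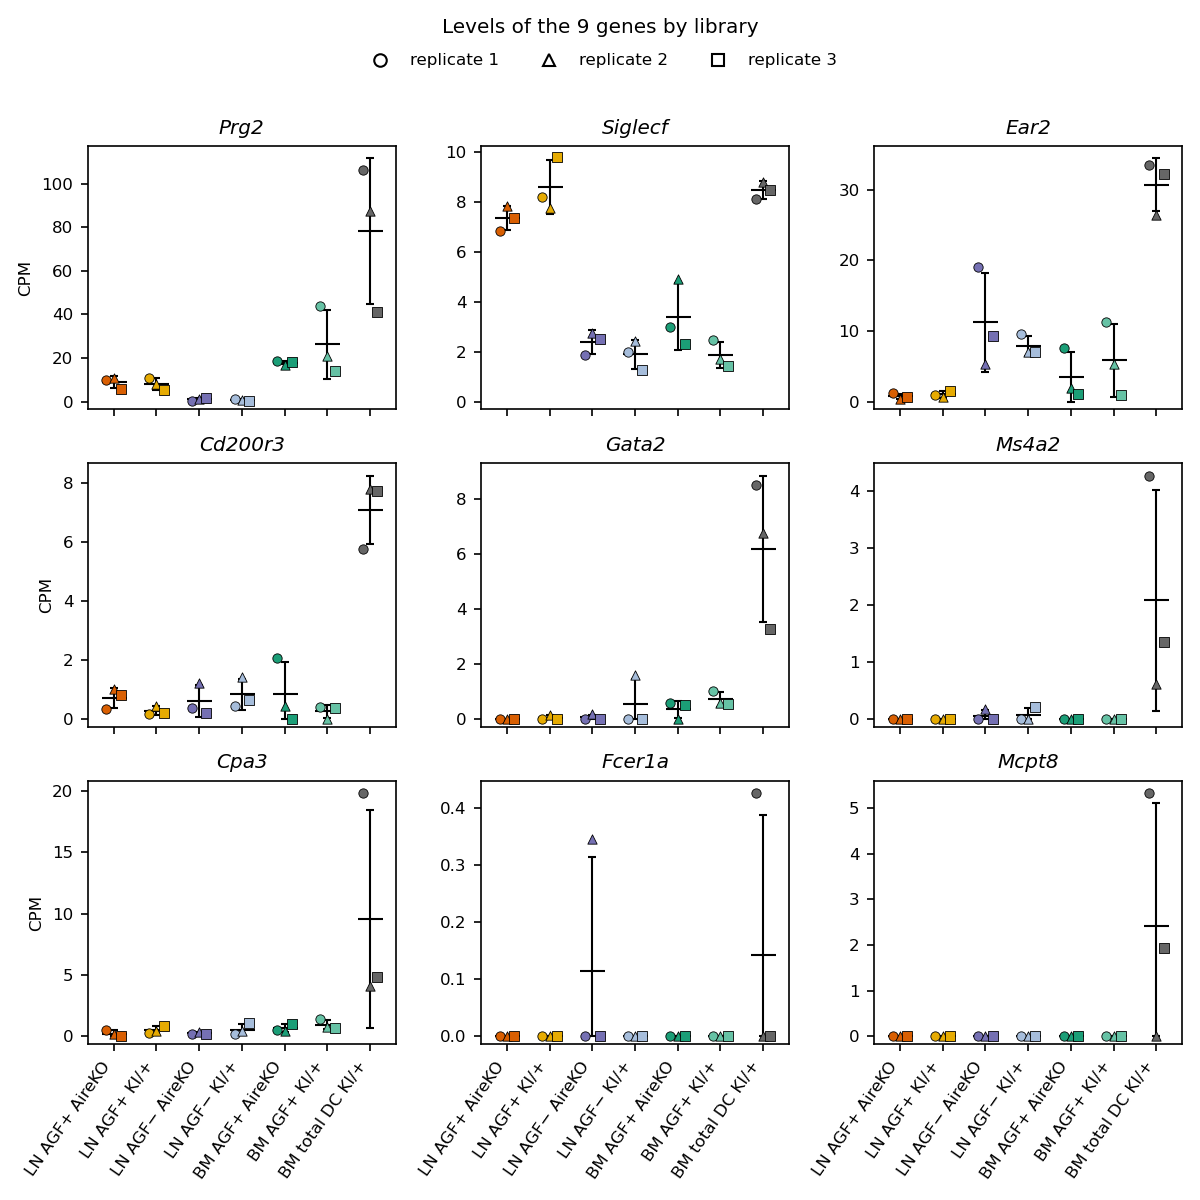
Level (CPM, linear axis) of each of the 9 genes in the 21 libraries, by group. Each point is a library, its shape the replicate number, with the group mean as a bar and 1 SD as whiskers, cut at 0. Bone marrow total DCs have the highest mean in 8 panels, while the Siglecf means lie between 7.35 and 8.59 CPM in both lymph node AGF+ groups and in total DCs.

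Prg2, the granule protein, reached 10.0, 10.8 and 5.74 CPM in lymph node AGF+ AireKO libraries, against 0.373, 1.21 and 1.55 CPM in AGF− AireKO libraries. In KI/+ mice it stood at 10.6, 7.90 and 5.24 CPM in AGF+ cells and at 1.11, 0.605 and 0.211 CPM in AGF− cells. All 6 AGF+ libraries lay above all 6 AGF− libraries, which held 1 to 8 counts each. Siglecf, the sialic acid receptor, reached 6.85, 7.83 and 7.38 CPM in AGF+ AireKO libraries, against 1.87, 2.76 and 2.53 CPM in AGF− AireKO libraries. In KI/+ mice Siglecf had 8.20, 7.75 and 9.82 CPM in AGF+ cells and 1.997, 2.42 and 1.27 CPM in AGF− cells, and again no AGF+ library overlapped an AGF− library. Ear2, an eosinophil-associated ribonuclease, went the other way. It had 1.17, 0.401 and 0.615 CPM in AGF+ AireKO libraries, against 19.04, 5.36 and 9.32 CPM in AGF− AireKO libraries, and 0.946, 0.608 and 1.53 CPM in AGF+ KI/+ libraries, against 9.54, 7.06 and 6.97 CPM in AGF− KI/+ libraries.

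Of the 9 members, 3 passed the filter on low counts in the lymph node fit, and all 3 were called in both genotypes by edgeR's quasi-likelihood test with Benjamini-Hochberg adjustment. Among all 15884 genes tested, 24.7% were called in AireKO and 21.1% in KI/+ cells, and libraries of the sorts did not overlap for 39.6% and 38.4% of genes, as for these 3 members. In AireKO cells the log2 fold change of AGF+ over AGF− was 3.06 ± 0.467 for Prg2 (SE, adjusted p = 3.17e-04), 1.61 ± 0.273 for Siglecf (adjusted p = 6.98e-04) and -3.86 ± 0.533 for Ear2 (adjusted p = 1.42e-04). The KI/+ values were 3.60 ± 0.522 for Prg2 (adjusted p = 2.84e-04), 2.16 ± 0.284 for Siglecf (adjusted p = 1.28e-04) and -2.97 ± 0.518 for Ear2 (adjusted p = 0.00112). Thus Prg2 and Siglecf rose and Ear2 fell in AGF+ cells of both genotypes. Prg2 passed the filter only through AGF+ libraries and Ear2 only through AGF− libraries. The share of 3 of 3 is therefore partly set by the filter. A known limit of Ear2 is its sequence: 13.9% of its 100-base exon windows are found in Ear10 or Ear-ps2, and the sources used here do not say how reads shared between copies were counted. The other 6 members had at most 12 counts over the 3 libraries of any lymph node group. Cd200r3 had 5 to 12 counts per group and Cpa3 4 to 9. Gata2 had 8 counts in AGF− KI/+ cells, all in replicate 2, and 0 or 1 in the other 3 groups. Ms4a2 and Fcer1a had 0 counts in both AGF+ groups and at most 2 in the AGF− groups, and Mcpt8 had 0 in all 4. A total of 3 counts over a group corresponds to 0.171 to 0.211 CPM, and levels under that were not detectable at this depth.

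**Figure D2:**
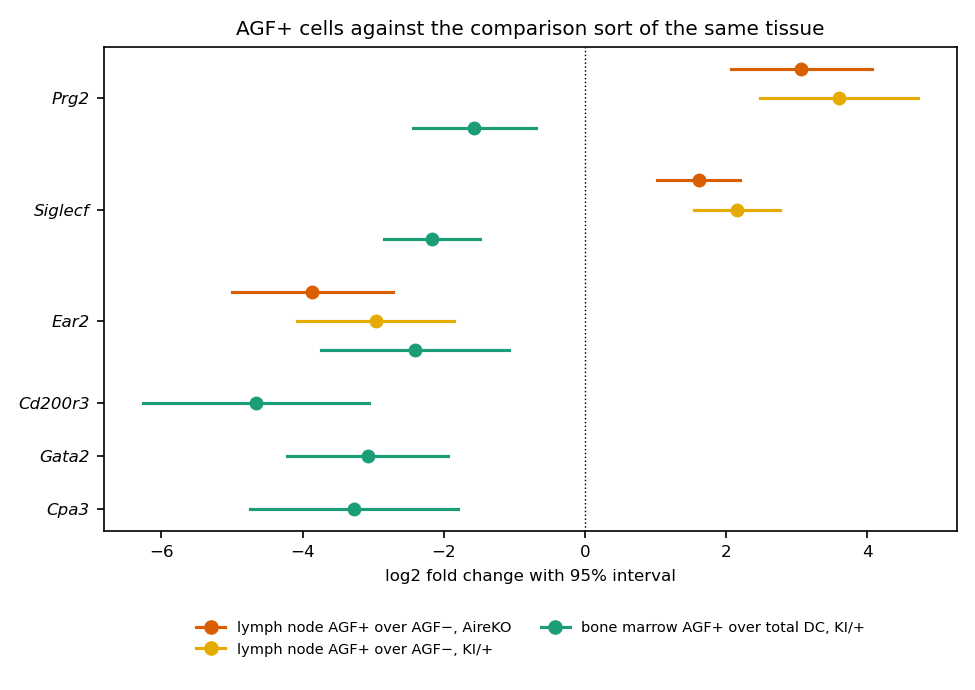
Log2 fold change (x axis, AGF+ over the comparison sort) with its 95% interval for the 6 members that could be tested, one line per comparison. Prg2 and Siglecf lie right of 0 in lymph node and left of 0 in bone marrow, and Ear2 lies left of 0 in all 3 comparisons. Cd200r3, Gata2 and Cpa3 have a bone marrow line only.

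In lymph node AGF+ cells Prg2 stood beside few or no counts of Epx, Rnase2a, Ear1 and Ear10, 4 granule genes picked with their values already seen. Counts of Prg2 and Epx, the eosinophil peroxidase, were 142 and 5 over the AGF+ AireKO libraries and 143 and 3 over the AGF+ KI/+ libraries. Bone marrow AGF+ cells had 249 Prg2 and 13 Epx counts in AireKO and 402 and 52 in KI/+ mice, while total DCs had 1137 and 719. Prg2 therefore made up 90.3% to 98.4% of both in lymph node AGF+ AireKO libraries and 97.1% to 100% in AGF+ KI/+ libraries. Bone marrow AGF+ cells had similar shares, 89.1% to 100% in AireKO and 80.8% to 100% in KI/+ libraries, with replicate 1 the lowest in both. The share was 60.9% to 61.5% in total DCs, whose 3 libraries had nearly the same ratio. The exact 95% binomial interval of the lowest lymph node AGF+ library ran from 74.25% to 98.0%, and that of the highest total DC library from 58.1% to 64.9%. Rnase2a, an eosinophil ribonuclease, had 0 CPM in all 6 lymph node AGF+ libraries, 4.08 to 27.4 CPM in bone marrow AGF+ AireKO, 2.14 to 14.9 CPM in bone marrow AGF+ KI/+ and 71.8 to 82.7 CPM in total DC libraries. Rnase2a also had 0 counts in lymph node AGF− KI/+ libraries, though not in AGF− AireKO libraries. Ear1 and Ear10 had 0 counts in every lymph node library. Lymph node AGF− cells had 0 Epx counts in AireKO and 3 in KI/+ mice. Few or no Epx counts were therefore found in both lymph node sorts.

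**Figure D3:**
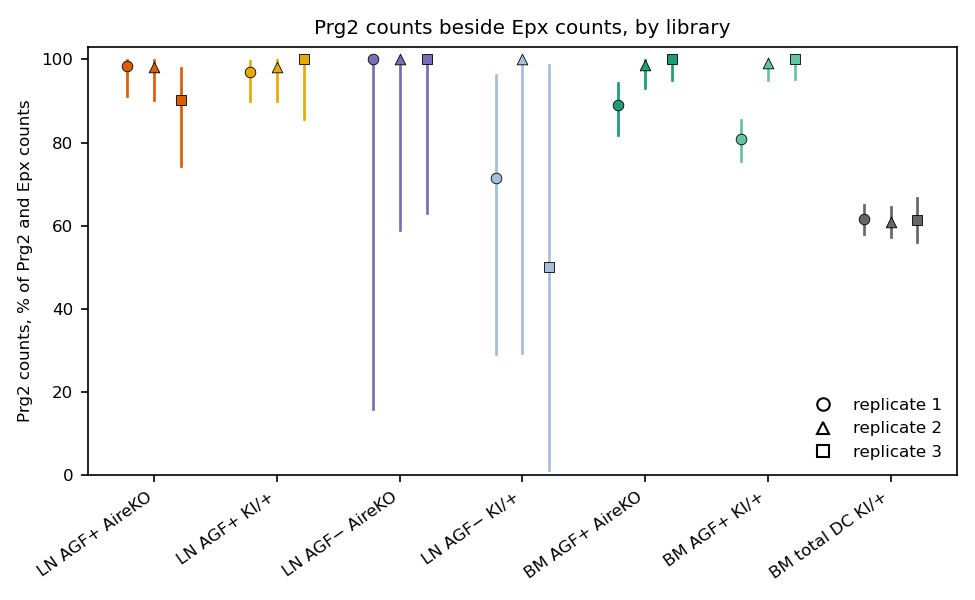
Prg2 counts as a percentage of Prg2 and Epx counts together in each library (y axis), with exact 95% binomial intervals that cover counting error only. The 3 total DC libraries sit near 61%, the 6 lymph node AGF+ libraries above 90%, and the 6 bone marrow AGF+ libraries at 80.8% to 100%. Lymph node AGF− libraries hold 1 to 8 Prg2 counts and have wide intervals.

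Prg3, which encodes a second major basic protein, lies beside Prg2 on chromosome 2 of GRCm38, on the same strand, at 84988215 to 84993886, after Prg2 at 84980461 to 84983632. Prg3 had 2.51, 6.22 and 4.71 CPM in lymph node AGF+ AireKO libraries, against 2.05, 2.25 and 1.36 CPM in AGF− AireKO libraries. In KI/+ mice it had 4.10, 5.47 and 3.71 CPM in AGF+ and 1.11, 1.01 and 0.845 CPM in AGF− libraries. It rose in AGF+ cells by 1.21 ± 0.371 in AireKO (edgeR adjusted p = 0.0279) and by 2.15 ± 0.416 in KI/+ mice (adjusted p = 0.00236) on the log2 scale. Prg3 was the only one of the 5 tested further eosinophil genes, from a list of 12, to rise in AGF+ cells, and the other 4 fell in both genotypes. Il5ra, the interleukin-5 receptor chain that eosinophils need, fell by 2.51 ± 0.680 in AireKO (adjusted p = 0.0146) and fell by 3.60 ± 0.772 in KI/+ cells (adjusted p = 0.00449). Il1rl1, the interleukin-33 receptor, fell by 3.76 ± 0.753 in AireKO AGF+ cells (adjusted p = 0.00317). In KI/+ mice Il1rl1 also fell (adjusted p = 0.00556), with 0 counts in AGF+ and 27 in AGF− libraries, at least 11.1-fold lower with AGF+ cells set at 3 counts over the group. The median log2 change of the 5 was -2.44 in AireKO and -2.21 in KI/+ cells, beside 0.007 and 0.015 over all genes tested, and the KI/+ median is the same with Il1rl1 at its bound.

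Further basophil and mast cell genes did not move as one group between the lymph node sorts. Of 12 further basophil genes 6 were tested, of which 0 rose and 3 fell in AireKO AGF+ cells and 1 rose and 3 fell in KI/+ AGF+ cells. Those that fell in both include Ptgdr2, the prostaglandin D2 receptor (-3.72 ± 0.797 in AireKO and -2.64 ± 0.790 in KI/+ cells), Itga2, a collagen receptor chain, and Il18r1. Of 16 further mast cell genes 6 were tested, and in both genotypes 1 rose (Slc18a2, the vesicular monoamine transporter) and 1 fell (Mitf, a transcription factor that mast cells need). The mast cell proteases Mcpt1 and Mcpt2 and the receptor Mrgprb1 had 0 counts in all 4 lymph node groups. All 16 genes of IgE receptor signalling were tested, and 0 rose while 10 fell in AireKO and 7 in KI/+ AGF+ cells, beside 24.7% and 21.1% of all genes called in either direction. The smallest adjusted p-values among them belonged to Fcer2a, the low-affinity IgE receptor (-3.17 ± 0.348 in AireKO and -2.21 ± 0.339 in KI/+ cells), Lat2, Grap2 and Lyn. Marker genes of other cells moved with the sort as well: all 12 genes of T and NK cells fell in AGF+ cells of both genotypes, and 9 of 14 monocyte and macrophage genes did. Of 10 B cell genes 10 fell in AireKO and 8 in KI/+ AGF+ cells, with median log2 changes of -4.16 and -3.53, and of 10 plasmacytoid DC genes 7 fell and 1 rose in AireKO while 5 fell and 1 rose in KI/+ AGF+ cells. Summed levels ran over 78.7 to 93.2 CPM in AGF+ AireKO and 59.1 to 97.0 CPM in AGF+ KI/+ libraries for the B cell genes, against 475.5 to 1022 CPM in AGF− AireKO and 303 to 700.4 CPM in AGF− KI/+ libraries. For the plasmacytoid DC genes they ran over 657 to 736 CPM in AGF+ AireKO and 691.5 to 743.5 CPM in AGF+ KI/+ libraries, against 803 to 1534 CPM in AGF− AireKO and 695.5 to 1040 CPM in AGF− KI/+ libraries. The sums were 293 to 695 CPM in AGF+ AireKO and 428 to 560 CPM in AGF+ KI/+ libraries for the 14 monocyte and macrophage genes, against 2184 to 3008 CPM in AGF− AireKO and 2146 to 2323 CPM in AGF− KI/+ libraries. The part of such cells in the changes of the members and of the lists was not tested. Several genes named from the lists belong to such cells as well, Fcer2a, Cd22 and Ms4a1 to B cells and Siglech to plasmacytoid DCs.

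The families of the 3 called members showed where each stood among its relatives. Of 8 other sialic acid receptors, 7 were tested, and 1 rose while 5 fell in AireKO and 4 fell in KI/+ AGF+ cells. Of all genes 24.7% and 21.1% were called in either direction. Siglecg averaged 153 CPM in AGF+ and 116 CPM in AGF− AireKO cells, and 150 and 109 CPM in KI/+ cells. Siglec15, too low to test, had 10 counts in AGF+ and 0 in AGF− AireKO libraries, and 17 and 0 in KI/+ libraries. Cd22, a B cell member, fell by 3.30 ± 0.297 in AireKO and fell by 2.78 ± 0.291 in KI/+ cells, and Siglech, a plasmacytoid DC member, fell by 4.06 ± 0.689 in AireKO and fell by 3.73 ± 0.681 in KI/+ cells. Of 10 further ribonucleases of the family of Ear2, 2 were tested, and Rnase6 fell by 0.74 ± 0.156 in AireKO and fell by 0.79 ± 0.157 in KI/+ AGF+ cells. Of 10 relatives of Ms4a2, 8 were tested and 7 fell in both genotypes, among them Ms4a1, which encodes CD20, and Ms4a4c. Of the CD200 axis, the ligand gene Cd200 rose by 1.15 ± 0.314 in AireKO and by 1.304 ± 0.315 in KI/+ AGF+ cells, while the inhibitory receptor gene Cd200r1 fell by 1.07 ± 0.262 in AireKO and fell by 0.92 ± 0.265 in KI/+ cells. Il9r, the interleukin-9 receptor of mast cells and other cells, rose by 2.11 ± 0.195 in AireKO and by 2.25 ± 0.196 in KI/+ AGF+ cells and averaged 268 ± 22.03 CPM in AGF+ AireKO and 281 ± 6.90 CPM in AGF+ KI/+ libraries.

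In bone marrow, AGF+ KI/+ cells were compared with total DCs of the same genotype, and every member tested fell. Prg2 had 43.9, 20.9 and 13.9 CPM in AGF+ cells, against 106, 87.5 and 41.1 CPM in total DCs. Replicate 1 of the AGF+ cells overlapped replicate 3 of the total DCs. Siglecf had 2.45, 1.72 and 1.43 CPM in AGF+ cells, against 8.10, 8.81 and 8.49 CPM, and Ear2 11.2, 5.36 and 0.892 CPM, against 33.5, 26.4 and 32.2 CPM in total DCs. Neither overlapped. Cd200r3, the activating receptor, had 0.408, 0 and 0.357 CPM in AGF+ cells, against 5.76, 7.79 and 7.72 CPM in total DCs. Gata2, the transcription factor, had 1.02, 0.574 and 0.535 CPM in AGF+ cells and 8.53, 6.76 and 3.28 CPM in total DCs. Cpa3, the carboxypeptidase, had 1.43, 0.766 and 0.713 CPM in AGF+ cells and 19.8, 4.10 and 4.83 CPM in total DCs. None of these 3 overlapped between the sorts.

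All 6 members that passed the filter fell in AGF+ cells (edgeR, 3 libraries against 3), beside 44.4% of 15503 genes called in either direction and 21.6% called lower. Cd200r3, Gata2 and Cpa3 passed the filter only through the total DC libraries. The share of 6 of 6 is therefore partly set by the filter. Non-overlap between the sorts held for 5 of the 6 tested members, beside 51.5% of all genes. The log2 fold change was -1.57 ± 0.397 for Prg2 (adjusted p = 0.00789), -2.17 ± 0.312 for Siglecf (adjusted p = 2.53e-04) and -2.41 ± 0.608 for Ear2 (adjusted p = 0.00774). It was -4.66 ± 0.728 for Cd200r3 (adjusted p = 4.21e-04), -3.08 ± 0.521 for Gata2 (adjusted p = 6.98e-04) and -3.27 ± 0.672 for Cpa3 (adjusted p = 0.00235). Without the libraries numbered 2 the calls of Prg2 (-1.32, adjusted p = 0.127) and Ear2 (-2.43, adjusted p = 0.0795) were lost, and 4 of 6 members were called. Ms4a2, the IgE receptor beta chain, had 0 counts in AGF+ cells and 20, 3 and 7 in total DCs, at least 10.7-fold lower over the group. Mcpt8, the basophil protease, had 0 counts in AGF+ cells and 25, 0 and 10 in total DCs, at least 12.4-fold lower. Both bounds set AGF+ cells at 3 counts over the group. Fcer1a, the IgE receptor alpha chain, had 2 counts in all in total DCs and 0 in AGF+ cells, too few for a fold.

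Within the total DC group, replicate 1 stood above the other libraries in several basophil and mast cell members, though not in Cd200r3. Cd200r3 had 5.76 CPM there and 7.79 and 7.72 CPM in replicates 2 and 3. Replicate 1 had 19.8 CPM of Cpa3, 5.33 CPM of Mcpt8 and 4.27 CPM of Ms4a2. Replicates 2 and 3 had 4.10 to 4.83, 0 to 1.93 and 0.615 to 1.35 CPM of these 3. Mpo, myeloperoxidase of neutrophil and monocyte precursors, moved with them, with 92.8 CPM in replicate 1 and 3.28 and 12.4 CPM in replicates 2 and 3, as did Elane, neutrophil elastase, with 18.8 CPM and 0.205 and 1.74 CPM. Summed over 16 neutrophil genes the bone marrow AGF+ KI/+ libraries had 6.599 to 22.8 CPM and the total DC libraries 73.2 to 193 CPM. The part of such precursors in the members' levels was not tested. Among bone marrow AGF+ cells, replicate 1 of both genotypes was highest in Ear2, with 7.51 CPM in AireKO and 11.2 CPM in KI/+ mice, and in Epx, with 2.25 and 10.4 CPM, where the other 4 libraries had 0 to 0.214 CPM.

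**Figure D4:**
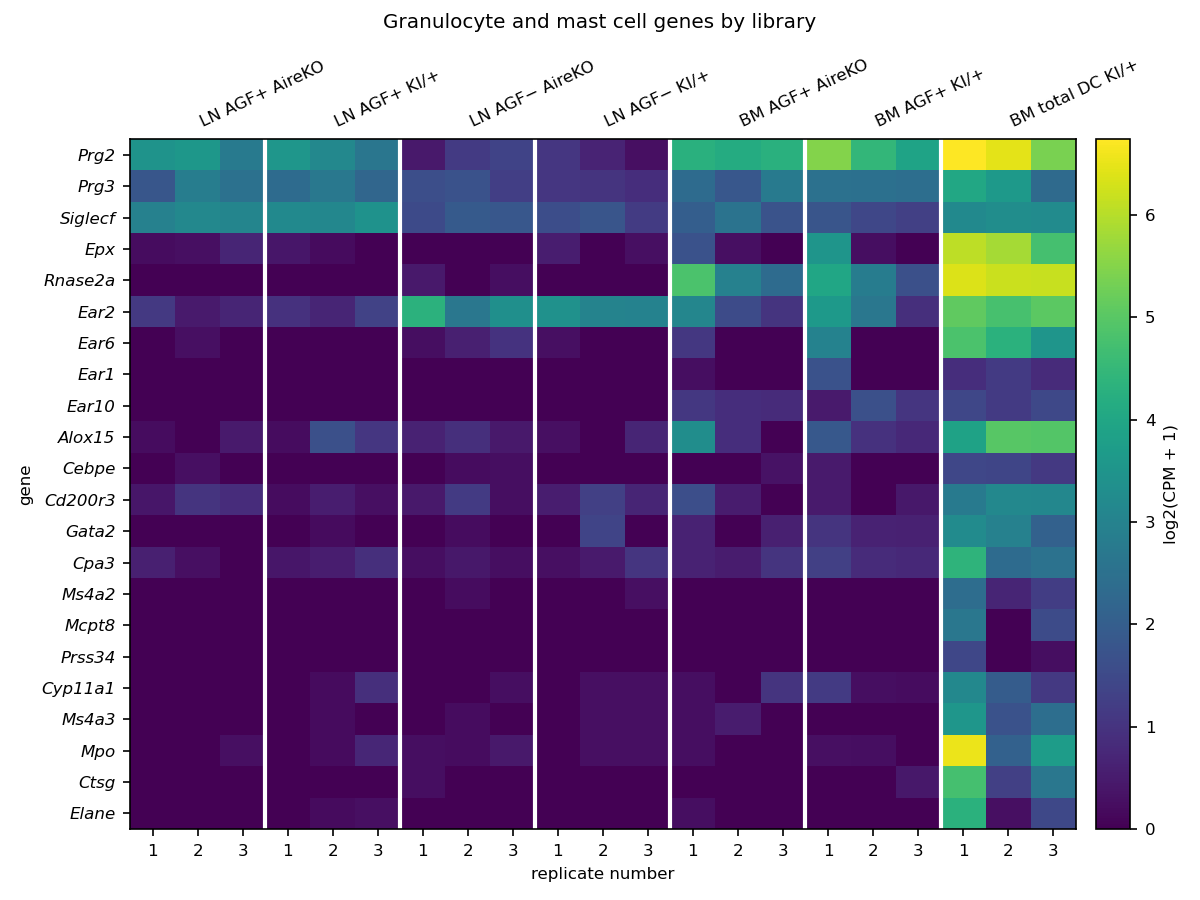
Level of the members other than Fcer1a and of further granulocyte genes in the 21 libraries, in columns by group and replicate number, with color as log2(CPM + 1). In the lymph node AGF+ columns Prg2, Prg3 and Siglecf are the brightest, and Rnase2a, Ear1 and Ear10 are at 0. Mpo, Elane, Cpa3, Mcpt8 and Ms4a2 are brightest in replicate 1 of the total DCs.

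Other eosinophil genes fell with the members in bone marrow AGF+ cells. Of 7 tested, 6 fell and 1 rose, with a median log2 change of -3.06 beside 0.017 over all genes. Epx fell by 3.84 ± 0.891 (edgeR adjusted p = 0.00483), Alox15, a lipoxygenase of eosinophils and macrophages, fell by 4.10 ± 0.829 (adjusted p = 0.0021) and Alox5, the leukotriene-forming lipoxygenase, fell by 3.33 ± 0.255 (adjusted p = 4.15e-06). The riser was Il5ra, which averaged 6.44 ± 1.18 CPM in AGF+ KI/+ cells and 1.10 ± 0.526 CPM in total DCs (2.55 ± 0.360, adjusted p = 2.20e-04). All 5 tested ribonuclease relatives of Ear2 fell, among them Rnase2a, which fell by 3.30 ± 0.632 (adjusted p = 0.00153). Further basophil genes were mixed, 3 higher and 1 lower of 7 tested, as were further mast cell genes, 2 higher and 1 lower of 6. Kit averaged 318 ± 30.4 CPM in AGF+ KI/+ cells and 115 ± 23.0 CPM in total DCs (1.48 ± 0.140, adjusted p = 1.58e-05), and Hpgds, prostaglandin D synthase, rose by 0.91 ± 0.146. Fcer1g, the signalling chain that the IgE receptor shares with other Fc receptors, averaged 23.4 ± 2.54 CPM in AGF+ KI/+ cells and 74.7 ± 3.74 CPM in total DCs, and fell by 1.66 ± 0.152. Of 22 tested genes in a list of further granulocyte transcription factors 7 rose and 6 fell, beside 44.4% of all genes called in either direction. Among those that rose was Zfpm1, which encodes the GATA cofactor FOG-1 (2.88 ± 0.259). Marker genes of other cells moved with the marrow sorts too. Of 12 tested monocyte and macrophage genes 10 fell. The 14 listed summed to 134 to 238 CPM in AGF+ KI/+ and 1253 to 1765 CPM in total DC libraries. In AGF+ cells 7 of 8 tested B cell genes, 8 of 10 plasmacytoid DC genes and 6 of 8 progenitor genes rose. Of the plasmacytoid DC genes 1 fell. The part of such cells in these changes was not tested.

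Between tissues the AGF+ cells differed in the members that were detected in both. Lymph node AGF+ cells had more Siglecf and less Prg2 and Ear2 than bone marrow AGF+ cells in both genotypes. In AireKO the log2 fold change of lymph node over bone marrow was 1.09 ± 0.273 for Siglecf (edgeR adjusted p = 0.00225), -1.003 ± 0.404 for Prg2 (adjusted p = 0.0432) and -2.25 ± 0.864 for Ear2 (adjusted p = 0.0351). In KI/+ cells it was 2.19 ± 0.288 for Siglecf (adjusted p = 2.39e-06), -1.70 ± 0.396 for Prg2 (adjusted p = 0.00114) and -2.51 ± 0.761 for Ear2 (adjusted p = 0.00844). That makes 3 of 6 tested members in each genotype, beside 51.4% of 17265 genes called in AireKO and 54.2% in KI/+ cells, shares near the members' own. The Siglecf and Prg2 libraries did not overlap between the tissues in either genotype, and the Ear2 libraries overlapped in both, beside non-overlap for 64.5% of genes in AireKO and 61.4% in KI/+ cells. With 1 library left out in turn, the AireKO call of Prg2 was lost in 5 of 6 fits and that of Ear2 in 3 of 6. Over all 6 fits the log2 change ran over -1.18 to -0.80 for Prg2 and -2.82 to -0.9958 for Ear2. The value of Ear2 nearest 0 was that without bone marrow AGF+ AireKO replicate 1. Both calls were also lost without the libraries numbered 2 (Prg2 -1.22, adjusted p = 0.125, and Ear2 -2.29, adjusted p = 0.109). In KI/+ cells the call of Ear2 was lost without bone marrow AGF+ replicate 1 (-1.64, adjusted p = 0.0986) and without the libraries numbered 2 (adjusted p = 0.0765). Gata2 had 1 count in lymph node AGF+ KI/+ cells and 11 in bone marrow AGF+ KI/+ cells, and 0 and 5 in AireKO. Its libraries overlapped in AireKO but not in KI/+ cells. Its changes did not pass the main test (edgeR adjusted p = 0.0574 in KI/+ and adjusted p = 0.1 in AireKO). In KI/+ cells Gata2 was called by DESeq2 (adjusted p = 0.0401), limma voom (adjusted p = 0.0192) and edgeR with a replicate block. By edgeR it was also called there without the libraries numbered 2 (-5.02, adjusted p = 0.0377). Without the filter edgeR called it in both genotypes.

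Lymph node AGF− cells were also set beside bone marrow total DCs of KI/+ mice, and all 6 tested members were lower in lymph node, beside 56.1% of genes called in either direction and 27.3% called lower. The log2 fold change was -6.89 ± 0.569 for Prg2 (edgeR adjusted p = 4.43e-09), -4.02 ± 0.651 for Cpa3, -3.41 ± 0.729 for Gata2, -3.04 ± 0.603 for Cd200r3, -2.14 ± 0.294 for Siglecf and -1.97 ± 0.538 for Ear2. The largest of the other 5 adjusted p-values was 0.00402, for Ear2. In this fit too, Cd200r3, Gata2 and Cpa3 passed the filter only through the total DC libraries. The share of 6 of 6 is therefore partly set by the filter. Mcpt8 was at least 11.2-fold lower, and Ms4a2, with 1 count against 30, was 28.9-fold lower with a counting interval of 4.80 to 1180.

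The change with the reporter differed between the tissues for Prg2 and Siglecf. In KI/+ mice the log2 change of AGF+ over AGF− in lymph node minus that of AGF+ over total DC in bone marrow was 5.19 ± 0.743 for Prg2 (edgeR adjusted p = 3.86e-05) and 4.34 ± 0.412 for Siglecf (adjusted p = 3.46e-07), so 2 of 6 tested members had a higher value in lymph node, beside 9.75% of all genes called in that direction. For Ear2 the difference was -0.55 ± 0.931, with a 95% interval of -2.49 to 1.39. Cd200r3 (3.19 ± 1.39, adjusted p = 0.115) and Cpa3 (3.17 ± 1.15, adjusted p = 0.0553) did not pass the test. Cpa3 was called by DESeq2 (adjusted p = 0.0354), by limma voom (adjusted p = 0.0204) and by edgeR without the filter (adjusted p = 0.009). With edgeR it was also called with a replicate block and in 4 of 12 fits with 1 library left out. The gates of the compared sorts differ between the tissues, so the reporter and the gate cannot be told apart in this difference.

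Loss of Aire was not accompanied by a called change in any member. In lymph node AGF+ cells 0 of 3 tested members were called between AireKO and KI/+ mice, beside 0.0126% of all genes. The log2 change was 0.15 ± 0.366 for Prg2 (95% interval -0.64 to 0.93), -0.23 ± 0.241 for Siglecf (-0.75 to 0.28) and -0.39 ± 0.699 for Ear2 (-1.89 to 1.11). Lymph node AGF− cells gave 0 of 3, beside 0.00630%, with 0.68 ± 0.674 for Prg2 (-0.76 to 2.13), 0.31 ± 0.320 for Siglecf (-0.37 to 1.00) and 0.50 ± 0.400 for Ear2 (-0.35 to 1.36). Bone marrow AGF+ cells gave 0 of 6, beside 0.0129%. There Prg2 had 18.4, 16.9 and 18.3 CPM in AireKO and 43.9, 20.9 and 13.9 CPM in KI/+ libraries, a log2 change of -0.55 ± 0.420 (-1.47 to 0.38). Siglecf had 3.005, 4.91 and 2.29 CPM in AireKO and 2.45, 1.72 and 1.43 CPM in KI/+ libraries (0.88 ± 0.348, interval 0.12 to 1.65), the single member with an unadjusted p under 0.05 (unadjusted p = 0.0271, adjusted p = 1). The genotypes overlapped for every one of these members. They did not overlap for 10.3% of all genes in lymph node AGF+, 8.95% in lymph node AGF− and 6.69% in bone marrow AGF+ cells. With 3 libraries against 3, chance alone gives non-overlap for 10% of genes, so overlap in 3 or 6 members is no result about them. DESeq2 and limma voom also called 0 members in the 3 comparisons, and at an unadjusted p under 0.05 edgeR gave 0, 0 and 1.

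The interactions of genotype with sort in lymph node (0 of 3 members, beside 0.00630% of genes) and with tissue in AGF+ cells (0 of 6, beside 0%) gave no call by edgeR, DESeq2 or limma voom. At an unadjusted p under 0.05 edgeR gave 0 members in the first and 1 in the second, Siglecf, whose genotype change in lymph node minus that in bone marrow was -1.10 ± 0.402 (unadjusted p = 0.0125, adjusted p = 1).

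**Figure D5:**
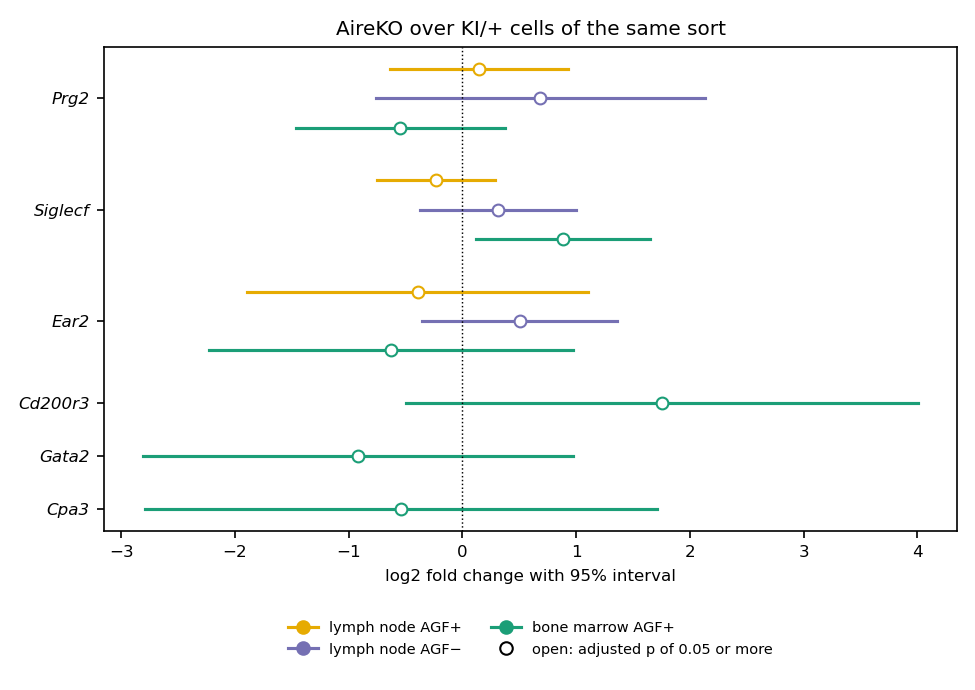
Log2 fold change (x axis, AireKO over KI/+) with its 95% interval for each tested member in lymph node AGF+, lymph node AGF− and bone marrow AGF+ cells. All points are open, since no adjusted p was below 0.05, and each interval but that of Siglecf in bone marrow includes 0.

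Per length of transcript, Prg2 was the most abundant member in lymph node AGF+ cells, with 46.4 ± 15.3 TPM (the level scaled by exon length) in AireKO and 41.7 ± 13.5 TPM in KI/+ mice, above Siglecf at 11.5 ± 0.685 and 13.7 ± 1.68 TPM and Ear2 at 4.46 ± 2.56 and 6.32 ± 2.83 TPM. In lymph node AGF− cells Ear2 led, with 63.8 ± 42.4 TPM in AireKO and 44.2 ± 7.01 TPM in KI/+ mice. In bone marrow total DCs Prg2 led with 313 ± 132 TPM, followed by Ear2 at 144 ± 17.3 TPM and Cpa3 at 21.2 ± 19.4 TPM. Ordered over the 7 groups, Prg2 fell into 3 tiers that did not overlap: the bone marrow groups, the lymph node AGF+ groups and the lymph node AGF− groups. Siglecf was high in both lymph node AGF+ groups and in total DCs, and the remaining groups overlapped their neighbours in the order. Ear2 in total DCs lay above all other groups, and every other pair of neighbours in its order overlapped.

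Patterns over the 21 libraries set Prg2, Siglecf and Ear2, the members with at least 10 counts per library on average, beside different genes. By Pearson's r of log2(CPM + 1) over the 21 libraries, which share groups and depth, and among 11517 genes, Prg2 was most like Pde4d, a cAMP phosphodiesterase (0.947), Kcnt1, a potassium channel (0.944), and P2rx5, an ATP receptor (0.944). Siglecf was most like Mbd1 (0.906), Mllt11 (0.888) and Herc2 (0.881). Ear2 was most like Ms4a4a, a macrophage gene of the MS4A family (0.962), Dgkg (0.954) and Xdh (0.944).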

How the data were processed

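RNA of sorted DCs was made into libraries from 1 ng of total RNA and read paired-end, per the labels' protocols. The authors deposited a table of raw read counts per Ensembl gene, made with fastp 0.20.0, STAR 2.7.3a, SAMtools 1.9, Picard 2.21.1 and HTSeq 0.11.2 on mm10, per the submitters' processing notes. The sources used here do not give the annotation release, the strand setting or the treatment of multimapping reads. A second, normalized table was not used.

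All values come from the deposited counts. Symbols, positions and exon lengths were taken from GENCODE vM21 on GRCm38, and 327 identifiers, with 0.0139% of counts, had no symbol. CPM used TMM factors times total counts, and TPM the union of exons. Tests used edgeR 4.0.16 (quasi-likelihood, TMM, expression filter with 10 counts, adjusted p under 0.05) in R 4.3.3, in 1 fit for the 12 lymph node libraries, 1 for the 9 bone marrow libraries and 1 for all 21 where tissues were compared. Alternatives were DESeq2 1.42.0, limma 3.58.1 voom, other scalings and filters, the other fits, a replicate block, each library left out, and all libraries numbered 2 left out. Tests were tested on simulated data. Figures were drawn with matplotlib 3.10.9, and tables made in Python 3.11.15 with scipy 1.17.1, numpy 2.4.6 and pandas 2.3.3.

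The members and the lists of related genes were chosen with earlier results of these data known, and the motif letters and the rule for named genes likewise. The rule takes all members, up to 4 genes of each related list with the smallest adjusted p, Aire and the 3 genes most like a member. Genes outside it (Epx, Rnase2a, Prg3, Ear1, Ear10, Ear6, Mpo, Elane, the other genes in the heat map and those given as checks of sort) were chosen after their values were seen. Comparisons that share libraries are not independent. No library was left out of the main tests, and replicates differed by more than counting noise (chi-square per degree of freedom of 4.04 to 17.9 over 21 pairs).

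Deviations from the group means correlated above 0.1 for every replicate number between the lymph node sorts of each genotype, between genotypes in lymph node AGF− cells and in both bone marrow comparisons, a hint from the data that numbers pair the samples there. They did not between genotypes in lymph node AGF+ cells (0.097 for number 1) or between tissues.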

Additional observations from a re-analysis of the deposited data

Results flagged for a closer look

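Prg2 is listed here because its change with the reporter differed between the tissues, by a test of the difference itself. In KI/+ mice the difference of log2 changes, lymph node minus bone marrow, was 5.19 (edgeR adjusted p = 3.86e-05). AGF+ cells were higher than AGF− cells in lymph node in 3 of 3 replicate numbers. In bone marrow AGF+ cells were lower than total DCs in 3 of 3 replicate numbers, though libraries of the sorts overlapped there.

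Siglecf met the same condition, with a difference of 4.34 (edgeR adjusted p = 3.46e-07), AGF+ libraries lying above all AGF− libraries in lymph node and below all total DC libraries in bone marrow. The 2 genes were called here under every alternative tried. The gates differ between the tissues and cannot be told apart from the reporter.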

How the results depend on the processing

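The 3 calls in each lymph node sort comparison, and the 6 between lymph node AGF− cells and total DCs, were kept under every alternative. Depth limits the members below 1 CPM, which rest on a few counts per library. The replicate block made no count of member calls differ by over 1.5 times: the 6 calls of bone marrow AGF+ cells over total DCs remained 6 with the block, those of lymph node AGF+ over bone marrow AGF+ KI/+ cells came to 4 (Gata2 added, -3.26, adjusted p = 0.0407), and the reporter by tissue comparison to 3 (Cpa3 added, 2.99, adjusted p = 0.0458). It changed no other call of a member.

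The members called in the reporter by tissue comparison numbered 4 under limma voom (Cd200r3 and Cpa3 added), against 2. Lymph node over bone marrow AGF+ AireKO calls numbered 1 without the libraries numbered 2, and 1 to 2 with any 1 library left out, against 3. There the call of Prg2 was lost in 5 of 6 such fits and with library size alone (-0.85, adjusted p = 0.0829), and that of Ear2 in 3 of 6 and under limma voom (-1.88, adjusted p = 0.0735). The causes were not tested.

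Every sign that turned belonged to a value that passed no test. Without the libraries numbered 2, Prg2 between genotypes in lymph node AGF+ cells was -0.0274, Cd200r3 in lymph node over bone marrow AGF+ KI/+ cells -0.99 and Gata2 in genotype by tissue 0.48. Under DESeq2, Gata2 was -0.0339 in reporter by tissue and 0.14 in genotype by tissue, and under limma voom Gata2 was 0.81 in genotype by tissue and Cd200r3 0.48 in lymph node over bone marrow AGF+ AireKO cells.

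With 1 library left out, genotype changes ran over -0.0613 to 0.41 for Prg2 in lymph node AGF+, -0.13 to 0.83 for Ear2 in lymph node AGF−, and, in bone marrow AGF+ cells, -0.86 to 0.0499 for Prg2, -1.91 to 0.27 for Ear2 and -0.12 to 2.24 for Cd200r3. Lymph node over bone marrow, Cd200r3 ran over -0.44 to 0.55 in KI/+ and -0.88 to 1.49 in AireKO cells. In reporter by tissue Ear2 ran over -1.08 to 0.34 and Gata2 -1.50 to 4.82. In genotype by tissue Ear2 ran over -0.63 to 1.54, Cd200r3 -1.01 to 1.35, Gata2 -1.37 to 0.92 and Cpa3 -1.58 to 0.045.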
